A study of Macaca mulatta with 27 samples.

Results

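The genes described here are the zinc-finger genes that rhesus primed pluripotent stem cells (PSCs) express. They are the gene symbols made of ZNF, a number, and at most 1 letter, with a mean of at least 10 CPM (counts of a gene per 1000000 counts of its library) over the 6 libraries of primed cells. This gave 258 genes of the 406 such symbols (63.5%), among 17967 genes in all. The choice used the primed libraries and no other. The 3 symbols just outside the limit were ZNF418 (9.90 CPM), ZNF805 (9.91 CPM), and ZNF296 (9.95 CPM), and the 3 just inside were ZNF836, ZNF224, and ZNF350, at 10.1 CPM each. The primed columns carry the letters J and K, and 252 symbols reached 10 CPM in the J columns alone, 260 in the K columns alone, and 239 in both.

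Zinc-finger proteins of the Krüppel type read DNA through arrays of fingers, each of which contacts a few bases. Many carry a KRAB domain, which recruits the corepressor TRIM28 and through it the histone methyltransferase SETDB1, and a large part of the KRAB family silences transposable elements or protects imprinted loci in early embryos and PSCs. Other members serve as adaptors of chromatin complexes, activate promoters, bind RNA, or pattern the nervous system. Their genes often lie side by side in clusters of related copies, so that reads shared by near-identical copies could be split or dropped when they are counted, which makes the level of single copies uncertain.

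RNA was sequenced from rhesus ESCs as 27 bulk libraries, 6 of primed cells and 3 of each of 7 protocols meant to bring primed PSCs to a naive-like state, namely TL2i and TL-CDK8i, E-NHSM and NHSM-v, t2iLGöY and LCDM (EPS), and 4i/L/b. The study describes its primed and reprogrammed cells as LyonES-tGFP-(S3), a single clone. This clone carries tauGFP driven by the ubiquitous CAG promoter and a lentiviral STAT3-ERT2 vector. By that account all groups, the primed controls included, share this background, though the main text does not name the line of each set of sequenced primed libraries. STAT3-ERT2 is a form of the transcription factor that tamoxifen sends to the nucleus. TL2i cells received tamoxifen, LIF, and inhibitors of MEK and GSK3β, and in TL-CDK8i a single compound against CDK8 and CDK19, CNIO-47799, stood in for both inhibitors. The other 5 protocols were used without tamoxifen, so that STAT3-ERT2 was inactive there, and their recipes are not given in the sources used here. Primed cells were passaged mechanically as clumps and all other cells as single cells after enzyme treatment, so that protocol and passaging cannot be told apart in comparisons with primed cells. No label says whether the libraries of a group came from separate cultures, so p-values measure the spread between these libraries only. Libraries held between 7111886 and 20760914 counts.

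Of 8 pluripotency markers, all 8 reached a mean of 1 CPM in primed, E-NHSM, and TL-CDK8i cells, with summed levels per library of 5771 to 6310 CPM, 6860 to 6915 CPM, and 1619 to 2275 CPM. The sum was 116 to 551 CPM in the other 5 protocols, and NANOG was at 0 in NHSM-v and t2iLGöY libraries. The sum of 7 fibroblast markers ranged from 401 to 437 CPM in E-NHSM, from 1053 to 2343 CPM in primed cells, from 3047 to 5958 CPM in TL2i, from 3648 to 4307 CPM in t2iLGöY, from 7305 to 7900 CPM in NHSM-v, from 815 to 1058 CPM in LCDM (EPS), from 8141 to 10449 CPM in TL-CDK8i, and from 11438 to 14791 CPM in 4i/L/b, whereas the defining genes DCN and LUM were at 0 in primed, E-NHSM, and t2iLGöY libraries. The sum of 8 neural markers was highest in LCDM (EPS), at 5424 to 5562 CPM against 2129 to 2517 CPM in primed cells. The sum of 5 mesoderm markers was 49.2 to 101 CPM in TL-CDK8i, 8.42 to 13.0 CPM in TL2i, and 13.0 to 27.3 CPM in primed cells, and no library outside TL-CDK8i exceeded 27.3 CPM. The sum of 6 trophoblast markers was 137 to 215 CPM in TL-CDK8i, 182 to 200.1 CPM in LCDM (EPS), 119.6 to 176 CPM in t2iLGöY, and 112 to 116 CPM in TL2i, against 3.42 to 14.4 CPM in primed cells, and stayed at or below 23.1 CPM in the other 3 protocols. Of these 6 genes, only 1 reached a mean of 1 CPM in LCDM (EPS) and 3 in t2iLGöY, against 4 in TL-CDK8i and 5 in TL2i. CDX2 and KRT7 were at 0 in LCDM (EPS) and t2iLGöY libraries. The sum of 5 endoderm markers was highest in TL2i, at 47.6 to 80.5 CPM, with 22.2 to 36.9 CPM in TL-CDK8i and 10.7 to 20.8 CPM in primed cells. These differences in marker levels go along with the groups, and their part in the results was not tested. In bulk RNA, fewer cells of a type and less RNA per cell cannot be told apart.

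The 258 zinc-finger genes took 1.41% ± 0.0468 (SD, n = 6) of all counts in primed cells. LCDM (EPS) cells gave them the highest share, 1.73% ± 0.0432 (SD, n = 3), followed by t2iLGöY, 1.63% ± 0.0140. TL2i (1.46% ± 0.0139) and E-NHSM (1.39% ± 0.0313) lay next to primed cells, and 4i/L/b (1.28% ± 0.0147) and NHSM-v (1.22% ± 0.0289) lay below them. In TL-CDK8i the share was 1.03% ± 0.0646, or 73.0% of the primed mean. Every TL-CDK8i library lay below every library of the 7 other groups, with values of 1.10%, 0.990%, and 0.994%, and every LCDM (EPS) library lay above all libraries outside that group.

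**Figure D1:**
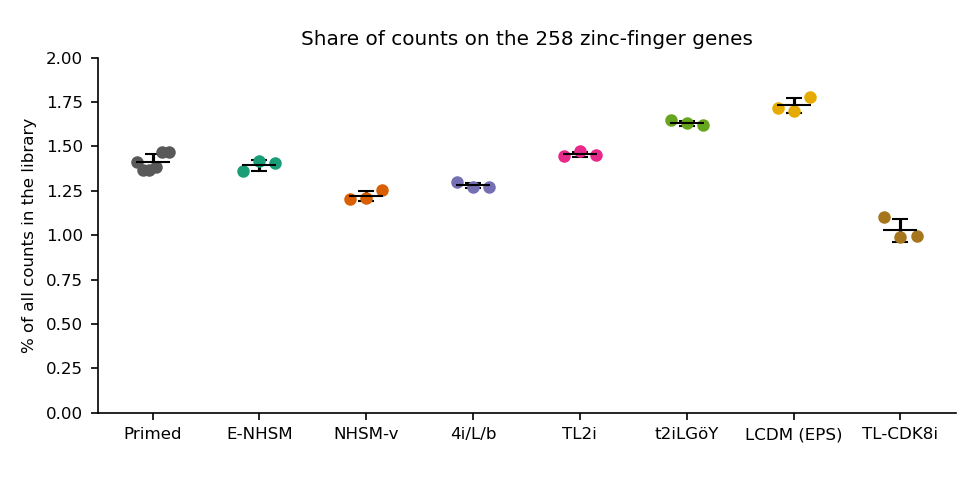
Percent of all counts that fell on the 258 zinc-finger genes (y axis), for each of the 8 groups (x axis). Dots are libraries, bars are the group mean, and whiskers are 1 SD. The 3 TL-CDK8i libraries sit between 0.990% and 1.10%, and the 3 LCDM (EPS) libraries between 1.70% and 1.78%.

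The direction of change differed between protocols. All 258 genes passed the filter on low counts in each comparison with primed cells. Calls rest on edgeR's quasi-likelihood test with an adjusted p under 0.05 over all genes tested. Because primed levels chose the genes, the counts of this paragraph and the next describe the comparison and are no test of the group. In TL-CDK8i cells, 16 zinc-finger genes were called higher and 135 lower than in primed cells, where 22.3% of all genes tested were called higher and 23.8% lower. Their median log2 fold change was -0.57, against 0.02 for all genes tested. Of the 8955 other genes at or above 10 CPM in primed cells, 21.2% were higher and 32.7% lower, with a median of -0.12. Against the 3 primed columns of letter J alone 23 zinc-finger genes were higher and 118 lower, and against the 3 of letter K 17 and 154. LCDM (EPS) showed the opposite balance, with 92 higher and 44 lower (28.2% and 28.9% of all genes tested) and a median of 0.26. Of the other genes at or above 10 CPM, 25.9% were higher and 38.1% lower in LCDM (EPS).

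In t2iLGöY, 75 were higher and 44 lower (27.1% and 27.2% of all genes tested), and in TL2i 66 were higher and 50 lower (25.6% and 25.2%). NHSM-v gave 52 higher and 78 lower (28.0% and 30.6%), and 4i/L/b gave 47 higher and 73 lower (26.6% and 29.0%). E-NHSM differed least from primed cells, with 24 higher and 36 lower (11.1% and 15.1%). Of the other genes at or above 10 CPM in primed cells, 23.7% were higher and 36.6% lower in t2iLGöY. These shares were 23.0% and 35.3% in TL2i, and 27.1% and 38.9% in NHSM-v. They were 23.7% and 39.3% in 4i/L/b, and 12.8% and 20.1% in E-NHSM. Some of the splits of the zinc-finger genes moved with the scaling of the libraries. With library totals alone in place of TMM factors, E-NHSM gave 36 higher and 29 lower, TL2i 86 and 40, and t2iLGöY 88 and 32, and with upper-quartile factors E-NHSM gave 35 and 30. Without E-NHSM replicate 2 the E-NHSM counts were 9 higher and 20 lower, without E-NHSM replicate 3 there were 10 higher, and with all 8 groups in one fit there were 46 higher. Without TL2i replicate 3, 43 genes were higher in TL2i.

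**Figure D2:**
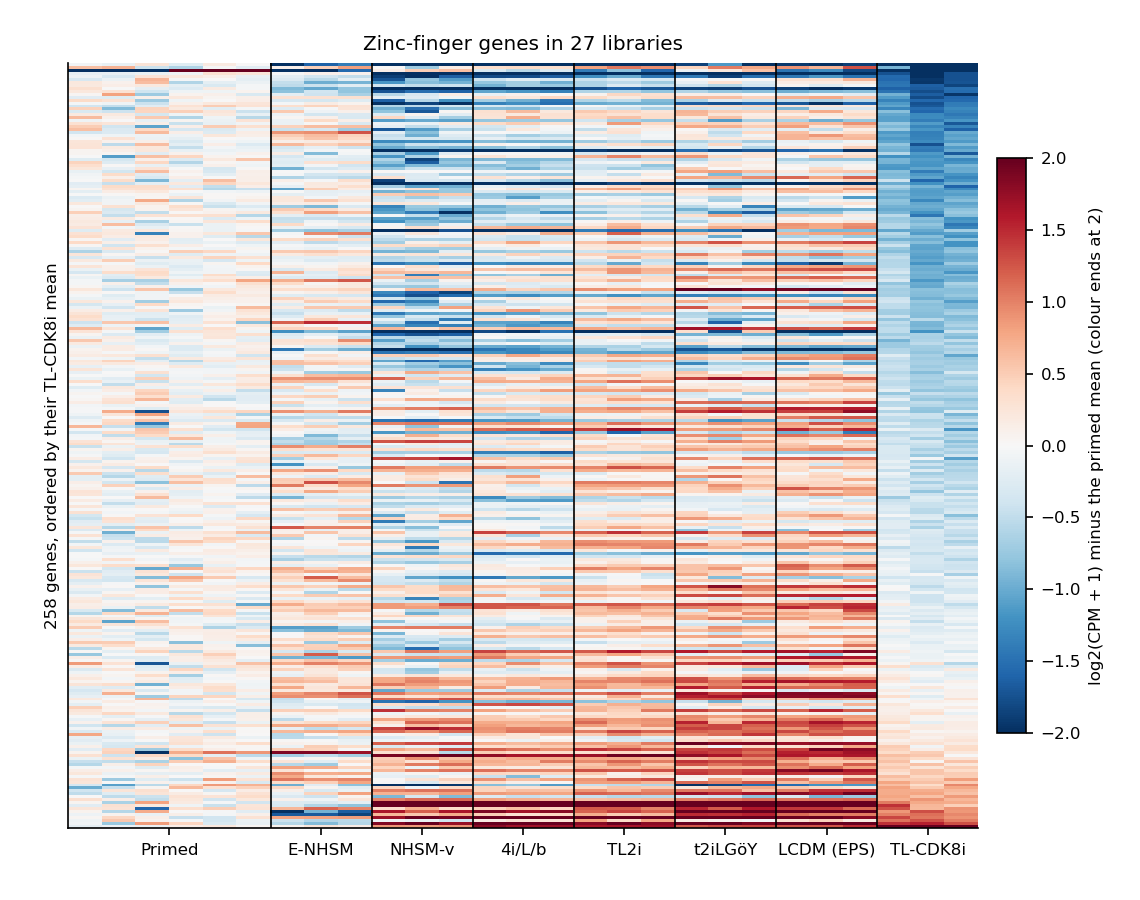
Each row is 1 of the 258 zinc-finger genes and each column 1 of the 27 libraries, grouped by protocol. Colour gives log2(CPM + 1) minus the mean of the primed libraries, from blue (lower) to red (higher), ending at 2 in either direction, and rows are ordered by the TL-CDK8i mean. TL-CDK8i columns are mostly blue, with 200 to 210 genes below the primed mean in each library on the TMM-scaled log2 CPM, and LCDM (EPS) columns are mostly red, with 95 to 100 genes below it.

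The pairs of protocols use none of the libraries that chose the genes, so single genes can be tested there without reuse of the primed values. The genes and the pairs were still chosen with earlier results of these data known. Counts of zinc-finger genes as a group are therefore a description here too. By the number of zinc-finger genes called, the largest difference of the 3 pairs was between TL-CDK8i and TL2i, which share the tamoxifen-driven STAT3 and differ in the kinase inhibitors. Over all genes tested, the called share was larger between E-NHSM and NHSM-v, at 68.3%, than between TL-CDK8i and TL2i, at 64.9%. Of the 258 genes, 175 (67.8%) were lower and 21 (8.14%) were higher in TL-CDK8i, where 33.3% of all genes tested were lower and 31.5% higher. Among the 8949 other genes at or above 10 CPM in primed cells that were tested, 2821 were lower and 3110 higher. The median log2 fold change of the zinc-finger genes was -0.63, against -0.04 for all genes tested. Called lower by at least 1 on the log2 scale were 70 of the 258 zinc-finger genes. This held for 1930 of all 13729 genes tested and for 633 of the 8949 other genes. Taken library by library against the TL2i mean, the median difference was -0.52 in TL-CDK8i replicate 1, -0.65 in replicate 2, and -0.62 in replicate 3, and 212, 217, and 218 genes lay below 0. Leaving out 1 library at a time left 155 to 179 genes lower and 20 to 22 higher. The marker sums of fibroblasts, pluripotency, mesoderm, and trophoblast were higher and those of endoderm and neural cells lower in TL-CDK8i than in TL2i, and their part in this result was not tested.

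**Figure D3:**
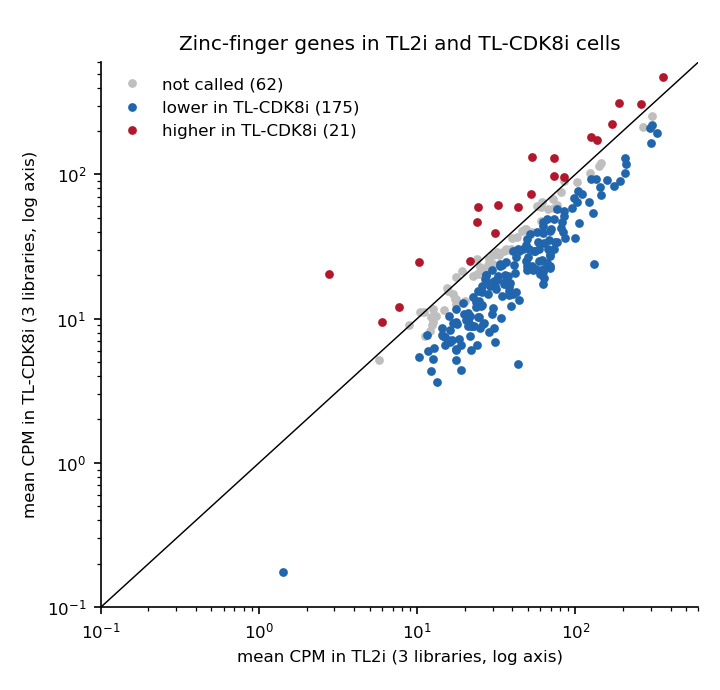
Each dot is 1 of the 258 zinc-finger genes, with its mean CPM in the 3 TL2i libraries (x axis, log scale) and in the 3 TL-CDK8i libraries (y axis, log scale). The line marks equal levels. The 175 genes called lower in TL-CDK8i (blue) lie below the line along the whole range of levels, the 21 called higher (red) lie above it, and the point far to the lower left is ZNF560.

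The difference was present at low and at high levels. Among zinc-finger genes with a mean of 10 to 30 CPM over all 27 libraries, 68.4% of 117 were lower in TL-CDK8i than in TL2i, against 28.2% of 2216 other genes of that range. Between 30 and 100 CPM it was 69.8% of 106 against 33.8% of 3990, and above 100 CPM it was 61.3% of 31 against 32.2% of 2583. Of the 132 tested ZNF symbols under 10 CPM in primed cells, 78 were lower and 11 higher, and there were 40 lower and 5 higher among 55 genes of the ZFP, ZSCAN, ZKSCAN, and ZBTB families at or above 10 CPM.

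E-NHSM and NHSM-v, 2 NHSM variants by name, differed in the levels of many zinc-finger genes, with 96 (37.2%) higher and 64 (24.8%) lower in E-NHSM. Of all genes tested, 34.8% were higher and 33.4% lower. Of the other genes at or above 10 CPM in primed cells, 41.0% were higher and 33.7% lower. The median log2 fold change of the zinc-finger genes was 0.23, against 0.03 for all genes tested and 0.11 for these other genes. LCDM (EPS) and t2iLGöY were the most alike of the 3 pairs, with 31 genes higher and 16 lower in LCDM (EPS) (15.7% and 16.8% of all genes tested). Without LCDM (EPS) replicate 3 these were 19 and 9, without LCDM (EPS) replicate 1 there were 10 lower, and with all 8 groups in one fit there were 7 lower. The test for any difference among the 7 protocols called 246 of the 258 genes, where 90.9% of all genes tested were called. The highest protocol mean exceeded the lowest at least 2-fold in 204 of the 258 genes, at least 4-fold in 38, and at least 10-fold in 7, with a median ratio of 2.64. These ratios were not computed for other genes, so they do not show whether zinc-finger genes range more or less than others. TL-CDK8i had the lowest mean of the 7 protocols for 137 of the zinc-finger genes (53.1%), against 20.6% of the 8955 other genes, and LCDM (EPS) had the highest for 97 (37.6%, against 19.2%). With TMM-scaled CPM these were 130 (50.4%, against 17.9%) and 78 (30.2%, against 15.1%).

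**Figure D4:**
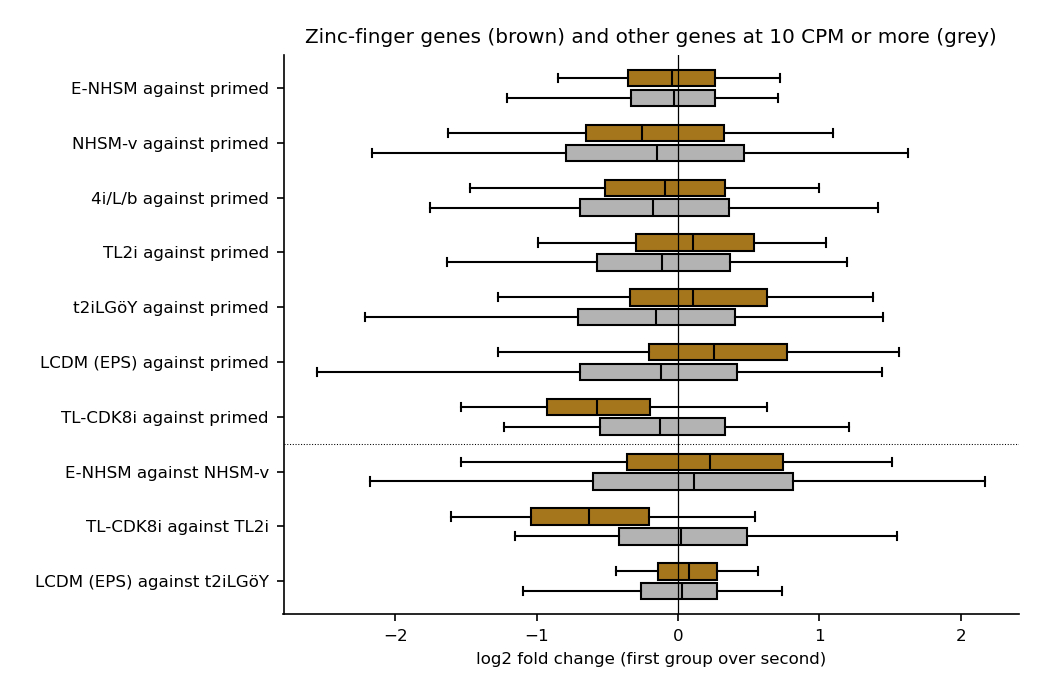
Box plots of log2 fold changes (x axis) in the 7 comparisons with primed cells and the 3 pairs of protocols (rows), for the 258 zinc-finger genes (brown) and the 8955 other genes at 10 CPM or more in primed cells (grey). Boxes span the quartiles, lines in them are medians, and whiskers reach the 5th and 95th percentiles. The zinc-finger genes of TL-CDK8i lie lower than the other genes, with medians of -0.57 against primed cells and -0.63 against TL2i.

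The zinc-finger genes are described next by role. Beside the counts of TL-CDK8i against TL2i stand the shares given above, 31.5% higher and 33.3% lower of all genes tested and 8.14% higher and 67.8% lower of the 258 genes, and no role list was tested against the rest. Of 6 members of the pluripotency network, 4 (66.7%) were higher and 2 (33.3%) lower in TL-CDK8i than in TL2i, with a median log2 fold change of 0.40 against -0.04 for all genes tested. ZNF281, a repressor that interacts with NANOG and OCT4, had a lowest, median, and highest level of 247, 291 and 332 CPM in primed cells. The E-NHSM libraries held 248, 239 and 234 CPM, the TL-CDK8i libraries 184, 161 and 173 CPM, and the TL2i libraries 144, 127 and 141 CPM. Every TL-CDK8i library lay between the TL2i and the primed values, and NHSM-v was lowest of all, at 108, 86.6 and 100.1 CPM. The log2 fold change of TL-CDK8i over TL2i was 0.45 (SE 0.09, adjusted p = 0.00062) by edgeR's quasi-likelihood test, and that of E-NHSM over NHSM-v was 1.17 (SE 0.09, adjusted p = 1.9e-08).

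ZNF398, an effector of activin signalling that sustains primed human PSCs, followed the same order. Primed libraries ranged over 120.3, 131 and 156 CPM (lowest, median, highest), and E-NHSM libraries, at 113, 129 and 133 CPM, overlapped them. TL-CDK8i libraries, at 68.5, 49.1 and 66.1 CPM, lay above those of TL2i, at 35.1, 31.2 and 31.7 CPM. The log2 fold change of TL-CDK8i over TL2i was 1.02 (SE 0.13, adjusted p = 9.7e-06), and 4i/L/b cells held the least, 22.1 ± 0.84 CPM (SD, n = 3). ZNF462, which is needed for the expression of pluripotency genes in mouse ESCs, averaged 434 ± 73.5 CPM over the primed libraries (SD, n = 6) and 157 ± 17.2 CPM in 4i/L/b (SD, n = 3). Between TL-CDK8i and TL2i it differed by 0.35 (SE 0.10, adjusted p = 0.0066) on the log2 scale, a call that was lost with library totals alone. ZNF706, linked to the exit from the naive state, was higher in TL-CDK8i than in TL2i by 0.55 (SE 0.11, adjusted p = 0.00044). The 2 lower members were ZNF322, at -0.57 (SE 0.10, adjusted p = 0.0002), and ZNF143, a promoter factor that also activates NANOG, at -0.49 (SE 0.11, adjusted p = 0.0017).

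The 2 sets of primed columns, which helped to choose the genes, held unlike levels of ZNF322. The columns of letter J held 40.2, 35.7 and 45.8 CPM and those of letter K 81.4, 65.3 and 66.8 CPM, with no overlap. LCDM (EPS) libraries lay above both sets, at 130.2, 141 and 130.2 CPM.

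**Figure D5:**
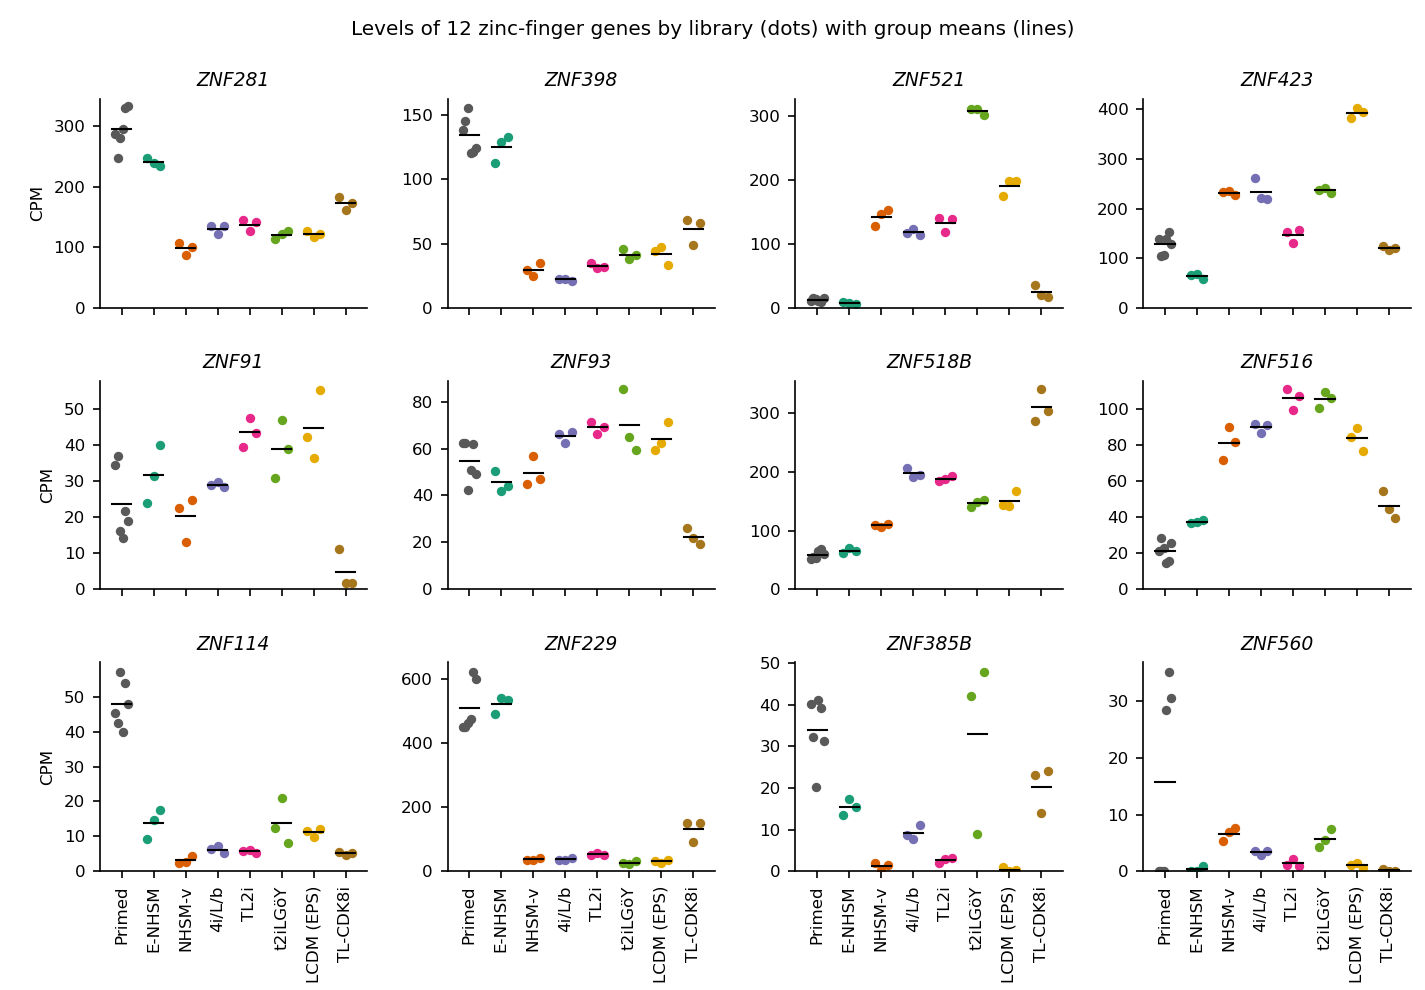
CPM of 12 zinc-finger genes (y axes, each starting at 0) in the 8 groups (x axes). Dots are libraries and lines are group means. ZNF281 and ZNF398 are highest in primed and E-NHSM cells and lie between these and the other protocols in TL-CDK8i, ZNF91 and ZNF93 are lowest in TL-CDK8i, ZNF518B is highest there, and ZNF560 has 3 primed libraries at 0 and 3 near 30 CPM.

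Among 14 partners of chromatin complexes, 9 (64.3%) were lower and 2 (14.3%) higher in TL-CDK8i than in TL2i, a lower share near the 67.8% of all 258 genes and above the 33.3% of all genes tested, with a median log2 fold change of -0.36. ZNF516, an adaptor of the CtBP and LSD1 complex, had primed levels of 14.9, 22.1 and 28.3 CPM (lowest, median, highest). It stood at 111, 99.5 and 107 CPM in TL2i and at 54.4, 44.5 and 39.8 CPM in TL-CDK8i. Both protocols lay above every primed library, and the difference between them was -1.08 (SE 0.11, adjusted p = 2.1e-06). ZNF335, a subunit of an H3K4 methyltransferase complex that is essential for neural progenitors, was at 36.1, 27.2 and 20.5 CPM in TL-CDK8i and 62.3, 74.2 and 72.0 CPM in TL2i, a log2 fold change of -1.20 (SE 0.16, adjusted p = 1.7e-05). ZNF711, a partner of the demethylase PHF8, gave -0.89 (SE 0.11, adjusted p = 8.1e-06), and ZNF609, which works with Integrator and NIPBL, gave -0.71 (SE 0.10, adjusted p = 2.4e-05).

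ZNF518B, which binds the H3K9 methyltransferase G9a, was the exception with the largest rise. Its primed levels were 52.1, 57.8 and 68.8 CPM (lowest, median, highest), and E-NHSM libraries, at 62.3, 69.9 and 65.5 CPM, lay within or next to them. TL2i libraries held 185, 187 and 193 CPM and TL-CDK8i libraries 286, 341 and 304 CPM, the highest of all 27. TL-CDK8i exceeded TL2i 1.79-fold, with a log2 fold change of 0.84 (SE 0.09, adjusted p = 3.4e-06). ZNF217, a subunit of the CoREST complex, was the other, at 199, 162 and 183 CPM in TL-CDK8i and 136, 128 and 113 CPM in TL2i (log2 fold change 0.64, SE 0.10, adjusted p = 8e-05).

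All 14 chromatin partners were called between E-NHSM and NHSM-v, where 68.3% of all genes tested and 74.7% of the other genes at 10 CPM or more in primed cells were called. Of the 14, 9 (64.3%) were lower in E-NHSM, against 33.4% of all genes tested, with a median log2 fold change of -0.54 against 0.03 for all genes tested. ZNF644, which brings G9a to chromatin, was at 295, 316 and 287 CPM in E-NHSM and 119.6, 107 and 115 CPM in NHSM-v, a log2 fold change of 1.27 (SE 0.07, adjusted p = 1.3e-09). ZNF638, which takes part in silencing of retroviral DNA, was higher in E-NHSM by 1.28 (SE 0.06, adjusted p = 1.2e-10). ZNF827, which recruits the NuRD complex to telomeres, went the other way, with 44.0, 37.8 and 40.4 CPM in E-NHSM and 149.5, 161 and 159 CPM in NHSM-v (log2 fold change -2.06, SE 0.10, adjusted p = 1.2e-10). The libraries of the 2 protocols did not overlap for these 3 genes. ZNF532, ZNF592, and ZNF687 form a complex with ZMYND8, and between E-NHSM and NHSM-v they did not move as one. Their log2 fold changes were -0.81 (SE 0.05, adjusted p = 4.8e-09), -1.25 (SE 0.12, adjusted p = 2.6e-07), and 0.36 (SE 0.09, adjusted p = 0.0031).

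The 9 genes that act on RNA, the ribosome, or the spindle included 2 (22.2%) that were higher and 2 (22.2%) that were lower in TL-CDK8i than in TL2i, both shares below those of all genes tested (31.5% and 33.3%), with a median log2 fold change of -0.11. ZNF346, which binds double-stranded RNA, was at 34.5, 43.3 and 39.1 CPM in TL2i and 15.1, 10.4 and 11.3 CPM in TL-CDK8i, a log2 fold change of -1.55 (SE 0.16, adjusted p = 1.4e-06), and the groups did not overlap. ZNF106 was also lower, at -0.64 (SE 0.09, adjusted p = 2.8e-05). ZNF385A, an RNA-binding target of p53, was higher by 0.59 (SE 0.13, adjusted p = 0.00097), and ZNF593, a factor of large ribosomal subunit assembly, by 0.77 (SE 0.25, adjusted p = 0.015). ZNF207, which protects the checkpoint protein BUB3 on the spindle, gave -0.16 (SE 0.08) with an adjusted p of 0.12, and ZNF598, the ubiquitin ligase that senses stalled ribosomes, gave -0.11 (SE 0.11) with an adjusted p of 0.38.

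Of 6 factors that bind many promoters, 3 were lower in TL-CDK8i than in TL2i and 0 were higher, against 67.8% lower among all 258 genes and 33.3% among all genes tested, with a median log2 fold change of -0.32. ZNF76, a relative of ZNF143, was at 45.5, 48.6 and 53.6 CPM in TL2i and 26.0, 23.1 and 20.1 CPM in TL-CDK8i (log2 fold change -0.98, SE 0.13, adjusted p = 1.2e-05). ZNF24 was at 219, 196 and 204 CPM in TL2i and 119.7, 133 and 134 CPM in TL-CDK8i (log2 fold change -0.56, SE 0.09, adjusted p = 0.00011). For both genes every TL-CDK8i library lay below every TL2i library.

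The 4 members known from neural development or patterning were lower in E-NHSM than in NHSM-v without exception (33.4% of all genes tested and 24.8% of the 258 genes), and 3 of them were lower in TL-CDK8i than in TL2i (33.3% and 67.8%). The median log2 fold changes were -1.53 and -0.71. ZNF521, which drives ESCs toward neural progenitors, had primed levels of 8.56, 12.6 and 15.1 CPM (lowest, median, highest). It was at 9.49, 7.58 and 6.42 CPM in E-NHSM and 128, 147 and 153 CPM in NHSM-v, and its highest levels were those of t2iLGöY, 309, 311 and 301 CPM. TL-CDK8i libraries, at 34.9, 19.7 and 17.1 CPM, lay far below those of TL2i, at 140.4, 118 and 138 CPM. The neural marker sum was lower in the same protocol of both pairs, with 1253 to 1399 CPM in E-NHSM against 2207 to 2298 CPM in NHSM-v, and 1895 to 1958 CPM in TL-CDK8i against 2604 to 2815 CPM in TL2i. In primed cells, at the ZNF521 levels given above, this sum was 2129 to 2517 CPM and overlapped that of NHSM-v. The part of the neural marker sum was not tested.

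ZNF521 thus separated E-NHSM, primed, and TL-CDK8i cells, at 34.9 CPM or less in every library, from the other 5 protocols, at 113.0 CPM or more. The log2 fold change was -4.30 (SE 0.15, adjusted p = 4.2e-12) for E-NHSM over NHSM-v, -2.36 (SE 0.19, adjusted p = 1.8e-07) for TL-CDK8i over TL2i, and -0.70 (SE 0.08, adjusted p = 1e-06) for LCDM (EPS) over t2iLGöY. ZNF423, a relative of ZNF521 that patterns the cerebellum and marks adipocyte precursors, was highest in LCDM (EPS), at 382, 403 and 394 CPM, where primed cells had 105, 133 and 153 CPM (lowest, median, highest). LCDM (EPS) exceeded t2iLGöY by 0.72 (SE 0.07, adjusted p = 1.4e-07) on the log2 scale. TL-CDK8i and TL2i were at 120.1 ± 4.35 and 146 ± 14.2 CPM (SD, n = 3 each), and their difference of -0.17 (SE 0.09) had an adjusted p of 0.13. ZNF608 and ZNF292 were lower in TL-CDK8i than in TL2i, with log2 fold changes of -0.74 (SE 0.10, adjusted p = 2.5e-05) and -0.67 (SE 0.10, adjusted p = 3.1e-05).

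Of the 4 list members that fell short of 10 CPM in primed cells, ZNF503 and ZNF703, a pair of NET-family repressors, averaged 0.858 ± 0.774 and 5.77 ± 5.11 CPM over the primed libraries (SD, n = 6). In NHSM-v they were at 26.9 ± 1.56 and 188 ± 12.6 CPM (SD, n = 3).

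All 6 members known in humans to silence transposable elements or to guard imprints were lower in TL-CDK8i than in TL2i, as were 67.8% of all 258 genes and 33.3% of all genes tested, with a median log2 fold change of -0.95. ZNF91, which represses SVA and LINE-1 elements, was at 39.7, 47.6 and 43.6 CPM in TL2i and at 11.2, 1.66 and 1.72 CPM in TL-CDK8i. Replicates 2 and 3 of TL-CDK8i were far lower than replicate 1, and all 3 lay below every other library of the study. The log2 fold change was -3.10 (SE 0.43, adjusted p = 2.7e-05). ZNF93, which represses LINE-1 elements, was at 71.5, 66.3 and 69.3 CPM in TL2i and 26.2, 21.8 and 19.5 CPM in TL-CDK8i, a log2 fold change of -1.50 (SE 0.12, adjusted p = 1.4e-07). The libraries of the other groups ranged from 42.0 to 85.6 CPM, so that TL-CDK8i again stood below all of them.

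ZNF445, which guards imprints together with ZFP57, was at 183, 228 and 204 CPM in TL2i and 119, 92.2 and 94.4 CPM in TL-CDK8i (log2 fold change -0.89, SE 0.11, adjusted p = 1.1e-05). Its primed levels were 73.4, 89.0 and 113 CPM (lowest, median, highest), and the TL-CDK8i libraries overlapped them. ZNF808, ZNF534, and ZNF649 were lower, with log2 fold changes of -0.89 (SE 0.14, adjusted p = 6.8e-05), -1.01 (SE 0.18, adjusted p = 0.00027), and -0.77 (SE 0.23, adjusted p = 0.0081), the last of which was not called with all 8 groups in one fit. ZNF808, which silences MER11 elements in the developing pancreas, and ZNF534 were highest in E-NHSM, at 64.4, 54.1 and 55.1 CPM and 28.9, 36.5 and 35.5 CPM, against 17.4, 14.5 and 26.9 CPM and 8.42, 3.69 and 10.2 CPM in NHSM-v. E-NHSM exceeded NHSM-v by 1.43 (SE 0.21, adjusted p = 2.3e-05) for ZNF808 and 2.04 (SE 0.30, adjusted p = 2.7e-05) for ZNF534.

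The corepressors through which KRAB proteins act were measured on a list of 18 genes, which also holds ZFP57, a zinc-finger protein and no corepressor. Of the 18, 9 were lower and 6 (33.3%) higher in TL-CDK8i than in TL2i, against 33.3% and 31.5% of all genes tested. The median log2 fold change of the list was -0.27. TRIM28, the platform that KRAB domains bind, was at 687, 765 and 923 CPM in primed cells (lowest, median, highest), 666, 596 and 678 CPM in TL2i, and 463, 419 and 452 CPM in TL-CDK8i, a log2 fold change of -0.42 (SE 0.09, adjusted p = 0.00096). SETDB1, the methyltransferase that it recruits, was at 107, 109 and 108 CPM in TL2i and 77.2, 73.9 and 73.8 CPM in TL-CDK8i (log2 fold change -0.41, SE 0.09, adjusted p = 0.00085), and TL-CDK8i held its lowest values of all groups. ATF7IP, which stabilises SETDB1, gave a log2 fold change of -0.69 (SE 0.10, adjusted p = 5.5e-05), and CHD3, a remodeller of the NuRD complex, one of -1.35 (SE 0.11, adjusted p = 1.4e-07). The libraries of the 2 protocols did not overlap for these 4 genes. ZFP57, the imprint guardian, went the other way, with 3.49, 2.63 and 4.12 CPM in TL2i and 11.6, 6.63 and 7.79 CPM in TL-CDK8i (log2 fold change 1.46, SE 0.28, adjusted p = 0.00046). In primed cells it had a lowest, median, and highest level of 18.9, 28.2 and 38.9 CPM. HDAC2, a deacetylase of the same complex as CHD3, was at 286 ± 25.9 CPM in TL-CDK8i and 341 ± 26.0 CPM in TL2i (SD, n = 3 each), against 753 ± 49.1 CPM over the primed libraries (SD, n = 6). Between E-NHSM and NHSM-v, 12 (66.7%) of the 18 were higher and 4 (22.2%) lower in E-NHSM, against 34.8% and 33.4% of all genes tested, with a median of 0.53, TRIM28 by 0.50 (SE 0.05, adjusted p = 6e-07) and SETDB1 by 0.56 (SE 0.10, adjusted p = 0.00025).

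The 3 zinc-finger genes that the study set in a heat map of these same samples, ZNF114, ZNF732, and ZNF516, were picked by it on these data, so their levels are a description only. ZNF114 was at 39.9, 46.6 and 57.1 CPM in primed cells (lowest, median, highest) and at 9.34, 14.8 and 17.5 CPM in E-NHSM. It was at 2.31, 2.72 and 4.34 CPM in NHSM-v, 12.3, 20.9 and 8.03 CPM in t2iLGöY, and 5.49, 4.77 and 5.26 CPM in TL-CDK8i. No library of any protocol reached the lowest primed value. ZNF732 was at 29.4, 35.3 and 45.3 CPM in primed cells (lowest, median, highest), 19.0, 17.2 and 20.6 CPM in E-NHSM, and lower levels than in any E-NHSM library, down to 4.74 CPM, in all 18 libraries of the other 6 protocols. ZNF516 went the other way, with log2 fold changes over primed cells from 0.72 in E-NHSM to 2.18 in TL2i.

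Some genes changed by far more than the rest. ZNF229 was at 448, 469 and 621 CPM in primed cells (lowest, median, highest) and at 491, 540.4 and 533 CPM in E-NHSM. TL-CDK8i libraries held 151, 92.1 and 151 CPM, TL2i libraries 50.3, 58.0 and 50.5 CPM, and t2iLGöY libraries 25.8, 22.4 and 30.4 CPM. Primed and E-NHSM cells overlapped, TL-CDK8i lay below them, and all libraries of the other 5 protocols lay lower still, at 22.4 to 58.0 CPM. E-NHSM exceeded NHSM-v 13.0-fold (log2 fold change 3.70, SE 0.08, adjusted p = 3.1e-14), and TL-CDK8i exceeded TL2i 2.69-fold (log2 fold change 1.43, SE 0.15, adjusted p = 2.6e-06).

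ZNF850 had the same order, with 95.1, 113 and 108 CPM in E-NHSM, 48.9, 41.6 and 49.5 CPM in TL-CDK8i, and 22.2, 26.7 and 23.2 CPM in TL2i, and with log2 fold changes of 2.76 (SE 0.22, adjusted p = 4.3e-08) over NHSM-v and 1.08 (SE 0.12, adjusted p = 3.9e-06) over TL2i. ZNF385B, a relative of ZNF385A, was at 42.2, 8.95 and 47.7 CPM in t2iLGöY, where replicate 2 stood apart, and at 0.952, 0.0499 and 0.171 CPM in LCDM (EPS). The latter rest on 3 counts or fewer in replicates 2 and 3, and the adjusted p of this difference was 4.9e-07. TL-CDK8i, at 23.1, 13.9 and 24.0 CPM, lay above TL2i, at 2.05, 3.00 and 3.22 CPM, by 3.01 (SE 0.26, adjusted p = 2.7e-07).

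ZNF316, ZNF362, ZNF800, and ZNF704 were higher in every library of TL2i, LCDM (EPS), 4i/L/b, NHSM-v, and t2iLGöY than in any primed or E-NHSM library. ZNF316 was at 8.03, 13.1 and 23.6 CPM in primed cells (lowest, median, highest), 10.5, 10.4 and 11.2 CPM in E-NHSM, 96.5, 78.6 and 90.6 CPM in NHSM-v, and 27.9, 22.8 and 22.5 CPM in TL-CDK8i. E-NHSM lay within the primed range and NHSM-v above all primed libraries. The log2 fold change of E-NHSM over NHSM-v was -3.17 (SE 0.14, adjusted p = 7.3e-11), and for ZNF362, ZNF800, and ZNF704 it was -2.88, -2.86, and -3.34 (adjusted p = 1e-09, 1.2e-08, and 1.4e-07). ZNF664 was at 71.8, 71.4 and 63.5 CPM in E-NHSM, below all 24 other libraries, against 211, 235 and 251 CPM in primed cells (lowest, median, highest) and 367, 338 and 387 CPM in NHSM-v (log2 fold change -2.52, SE 0.08, adjusted p = 1.4e-12).

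ZNF267 and ZNF268 were among the 21 genes that were higher in TL-CDK8i than in TL2i. ZNF267 was at 61.3, 53.0 and 64.3 CPM in TL-CDK8i and 25.2, 23.4 and 23.8 CPM in TL2i (log2 fold change 1.42, SE 0.11, adjusted p = 1.2e-07), and no library of the other 7 groups reached the TL-CDK8i values. ZNF483 was at 23.9, 19.9 and 30.5 CPM in TL-CDK8i and 10.8, 10.3 and 9.66 CPM in TL2i (log2 fold change 1.39, SE 0.17, adjusted p = 1e-05). ZNF268, named here after its values were seen, was at 126, 136 and 129 CPM in TL-CDK8i and 69.1, 80.3 and 70.9 CPM in TL2i (log2 fold change 0.94, SE 0.09, adjusted p = 1.3e-06), and its TL-CDK8i libraries overlapped the primed range of 113, 120.1 and 138 CPM (lowest, median, highest).

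The genes were also split by their position among related genes. Of the 258 genes, 249 were matched by symbol to a rhesus gene table from RefSeq (assembly T2T-MMU8v2.0), which is used here for gene order only because the build of the count tables is not known. Zinc-finger genes of the table were recognised by symbol alone (ZNF, ZFP, ZSCAN, ZKSCAN, ZIM, or ZIK and a number). By this rule another zinc-finger gene was the direct neighbour of 124 of the 249 (49.8%), where this is true of 3.52% of all genes of the table. Zinc-finger genes under other kinds of symbol were not counted, so some genes without such a neighbour may lie in clusters too. Of these 124, 92 (74.2%) were lower and 4 (3.23%) higher in TL-CDK8i than in TL2i, with a median log2 fold change of -0.77. Of the 125 with no such neighbour, 74 (59.2%) were lower and 17 (13.6%) higher, with a median of -0.45. The clustered genes also had lower primed levels, with a median of 23.9 CPM against 38.2 CPM. Between E-NHSM and NHSM-v, 52 (41.9%) of the clustered genes were higher and 17 (13.7%) lower in E-NHSM, against 39 (31.2%) and 46 (36.8%) of the others. The difference between clustered and other genes was not tested.

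Only runs of neighbours with at least 5 of the 258 genes were examined. The longest of these held 18 zinc-finger genes in a row, 12 of which belong to the group, from ZNF772 to ZNF552. In TL-CDK8i 11 of these 12 were lower than in TL2i and 0 were higher, where 67.8% of all 258 genes and 33.3% of all genes tested were lower. The log2 fold changes of the 12 ranged from -1.69 to -0.34, with a median of -0.98. Between LCDM (EPS) and t2iLGöY 1 of the 12 was lower and 0 were higher, with a median of -0.11. A run of 11 neighbours with 10 members, from ZNF224 to ZNF180, held 9 lower genes and 1 higher gene, with a median of -1.39. The higher one was ZNF229, described above. ZNF224 was at 26.8, 34.4 and 32.3 CPM in TL2i and 8.85, 7.87 and 3.81 CPM in TL-CDK8i (log2 fold change -2.09, SE 0.23, adjusted p = 3.7e-06). ZNF226 was at 16.5, 18.5 and 17.7 CPM in TL2i and 6.94, 5.18 and 6.07 CPM in TL-CDK8i (log2 fold change -1.41, SE 0.18, adjusted p = 1.4e-05). ZNF235 was at 25.5, 25.3 and 24.3 CPM in TL2i and 9.74, 7.15 and 8.79 CPM in TL-CDK8i (log2 fold change -1.43, SE 0.16, adjusted p = 3.5e-06). In all 3 genes the groups did not overlap. A run of 10 with 7 members, from ZNF577 to ZNF836, had 7 lower and 0 higher, with a median of -0.91. The run from ZNF268 to ZNF10 held 2 lower and 1 higher of 6 genes, with a median of -0.16. Neighbours of such a run can be near-identical copies and share reads, so that they are not independent, and no run was tested against the other zinc-finger genes.

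No label explains the letters J and K of the primed columns, which mark 3 libraries each. Labels name the primed samples Primed and Primed 2 in one place and add Primed 3 in another, so the letters could not be tied to cultures. These same 6 columns chose the genes, and the comparison was made after the data were seen, so what follows is a description and no test. Between the sets 11 of the 258 genes (4.26%) were called, a share near the 3.73% of all genes tested, either direction counted. All 11 were higher in K, but the calls among all genes were not split by direction, so this has no background. ZNF560 was at 0, 0 and 0 CPM in J and at 28.5, 35.1 and 30.6 CPM in K, so that it passed the 10 CPM limit through the K libraries alone. TL-CDK8i libraries held at most 3 counts of ZNF560, E-NHSM libraries 0, 0 and 0.933 CPM, and NHSM-v libraries 5.26, 6.99 and 7.62 CPM, so that these protocols lay between the 2 sets of primed libraries or at the J level. The other 10 genes included ZNF483, at 11.9, 6.65 and 10.1 CPM in J and 20.6, 28.2 and 25.4 CPM in K, ZNF322, ZNF462, ZNF850, and ZNF229, and their log2 fold changes of K over J were between 0.35 and 1.40.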

How the data were processed

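RNA-seq was performed on 27 libraries of rhesus PSCs, 6 primed and 3 for each of 7 protocols. Libraries were made with a directional mRNA kit and read as single ends. The deposited files are 8 tables of whole-number read counts per gene symbol. The submitters' processing notes name bcl2fastq, cutadapt, HISAT2, and HTSeq, with no versions, and the genome build, annotation, and counting settings are not given in the sources used here. Totals ranged from 7111886 to 20760914 counts per library, and these set the counting error of genes near 10 CPM.

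Counts were used as deposited and joined by symbol over 17967 genes. Levels are CPM of library totals. Each comparison was fitted with edgeR 4.0.16 (R 4.3.3, limma 3.58.1), with filterByExpr, TMM factors, and the quasi-likelihood F test on the libraries of the groups compared, and p-values were adjusted by Benjamini-Hochberg over all genes tested at 0.05. SE is the absolute log2 fold change divided by the square root of F. Fitted log2 fold changes were not moderated beyond the edgeR default. DESeq2 1.42.0, other scalings, no filter, one fit of all groups, other limits of the rule, each set of primed columns, left-out libraries, and a replicate block were alternatives. The members, lists, and comparisons were chosen with earlier results of these data known. Genes named are those of the role and KRAB cofactor lists, the 4 with the highest and the 4 with the lowest called log2 fold change in each comparison, the 5 with the lowest p among the 7 protocols, and the 3 on either side of the limit. ZNF226, ZNF235, ZNF268, the genes that bound a run, and those called between the sets of primed columns lie outside this rule and were chosen after their values were seen. No library was a copy of another, since the chi-square per gene between libraries of a group was 3.98 to 29.8, above the 1 of sampling noise. On simulated counts, the test recovered 68% of genes with a log2 change of 1 at 6 libraries against 3 (13304 genes). At 3 against 3 (13729 genes) it recovered 85% of such genes. The simulations also held genes with a larger change, and over all calls 4.97% and 4.66% were false. These rates describe the simulated counts, and whether they hold in the real comparisons was not tested.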

Additional observations from a re-analysis of the deposited data

Results flagged for a closer look

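In 5 of the 65 zinc-finger genes examined, 1 primed library stood apart from the other 5, with a gap to its neighbour above Dixon's critical value. They were ZNF354A in J2 (28.3 CPM, median 16.1 CPM), ZNF512B in K3 (82.2 CPM, median 74.4 CPM), ZNF532 in K1 (397 CPM, median 442 CPM), ZNF622 in J3 (54.8 CPM, median 34.5 CPM), and ZNF704 in J3 (34.4 CPM, median 20.1 CPM). Chance gives about 1 in 20.

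In 12 of the same 65 genes the protocols of a pair were called in opposite directions from primed cells. The difference between the protocols was itself called by edgeR's quasi-likelihood test. Zinc-finger genes outside the 65 are not listed here, and some of them, such as ZNF581 in E-NHSM and NHSM-v, did the same. In E-NHSM over NHSM-v, ZNF232 differed by 0.97 on the log2 scale (adjusted p = 0.00045), above primed cells in E-NHSM and below them in NHSM-v. The other 7 genes listed for that pair were below primed cells in E-NHSM and above them in NHSM-v. Their log2 differences were -2.88 for ZNF362, -1.99 for ZNF423, -1.01 for ZNF512B, -0.81 for ZNF532, -2.52 for ZNF664, -3.34 for ZNF704, and -2.06 for ZNF827. In TL-CDK8i over TL2i, ZNF267 differed by 1.42, with TL-CDK8i above primed cells and TL2i below them. ZNF335 (-1.20), ZNF76 (-0.98), and ZNF91 (-3.10) had TL2i above primed cells and TL-CDK8i below them. These directions rest on primed levels, which also chose the genes.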

How the results depend on the processing

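Of 392 counts of called zinc-finger genes recomputed, 378 stayed within 1.5 times. E-NHSM against primed cells moved most, from 24 higher and 36 lower to 46 higher with all 8 groups in one fit, 15 higher among genes at 20 CPM or more, and 9 to 26 higher and 20 to 43 lower with 1 library left out. Among genes at 20 CPM or more, the counts higher than primed cells were also 33 in NHSM-v, 40 in TL2i, and 48 in t2iLGöY, by construction among 183 genes. With the genes chosen on the K columns and compared with the J columns, 25 were higher in TL-CDK8i. LCDM (EPS) against t2iLGöY gave 7 lower with all 8 groups in one fit. With 1 library left out, the counts higher and lower were 43 to 72 and 35 to 55 in TL2i, 12 to 17 and 99 to 144 in TL-CDK8i, 46 to 56 and 64 to 86 in NHSM-v, 37 to 58 and 62 to 76 in 4i/L/b, 64 to 74 and 35 to 49 in t2iLGöY, and 80 to 102 and 31 to 45 in LCDM (EPS), all against primed cells. They were 19 to 34 and 9 to 15 in LCDM (EPS) against t2iLGöY, 89 to 97 and 55 to 64 in E-NHSM against NHSM-v, 20 to 22 and 155 to 179 in TL-CDK8i against TL2i, and 237 to 248 among the 7 protocols. The cause of these shifts was not tested.

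Library totals in place of TMM factors moved the median of all genes by 0.12 in TL2i, 0.13 in t2iLGöY, and 0.12 in LCDM (EPS) against primed cells, by 0.12 in E-NHSM against NHSM-v, and by -0.12 in TL-CDK8i against TL2i. The median of the zinc-finger genes in E-NHSM against primed cells was 0.04 with library totals, and that in t2iLGöY was -0.03 among genes at 20 CPM or more. Of 336 gene and comparison pairs, 262 kept their call and direction in every setting, and 250 of 4948 values lost the call without a change of direction. Among the calls lost were ZNF462 in TL-CDK8i against TL2i with library totals, ZNF827 without TL2i replicate 2 or TL-CDK8i replicate 3, and ZNF534 in LCDM (EPS) against t2iLGöY without LCDM (EPS) replicate 3.

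Replicate numbers of a pair gave no sign of pairing. The correlation of same-numbered deviations lay between -0.126 and 0.0118, and 2 of 9 libraries correlated best with their own number. With the replicate block the counts higher and lower were 97 and 62 in E-NHSM against NHSM-v, 20 and 170 in TL-CDK8i against TL2i, and 29 and 13 in LCDM (EPS) against t2iLGöY, and 244 genes were called among the 7 protocols. Depth limits genes near 10 CPM, and near-identical copies limit single genes of a cluster.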
